A study of Mus musculus with 12 samples.

Results

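The genes described here are 50 genes of the cell division cycle, taken by their gene symbol from the 45859 gene rows measured in each library, and all 50 were found once. They were read in 9 roles, of which 1 role holds the D-type cyclins and their kinase (4 genes), 3 roles hold genes of entry into and passage through S phase (18 genes) and 5 roles hold genes of G2 and mitosis (28 genes). RNA came from lens capsules with the lens cells (LCs) that stay attached to them after the fiber cells are taken out through the cornea, a mouse model of cataract surgery, at 0 h or 24 h post cataract surgery (PCS) in adult mice 2 months old. WT mice were of the strain C57BL/6. β8ITG-cKO mice carried a floxed exon of Itgb8, the gene of the β8 integrin subunit, which the lens-specific MLR10-Cre transgene deletes, on a mixed C57BL/6 and 129S1/Sv background, so that the deletion, the background and the Cre cannot be told apart. The study also describes backcrossing to C57BL/6<har> in making this line. Each of the 4 conditions has 3 libraries, each made from pooled capsules, and the labels call them biological replicates. The study asks how LCs respond to the surgery and what αVβ8 integrin contributes. The comparisons below ask how the 50 genes changed from 0 h to 24 h PCS in each genotype, and how the genotypes differed at each time and in that change.

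A cell that leaves rest first makes D-type cyclins, which with Cdk4 release the E2F transcription factors from the RB proteins. E2F then drives the genes of S phase, among them cyclin E, the licensing factors Cdc6 and Cdt1, the MCM helicase that opens DNA at replication origins, the sliding clamp Pcna and the enzymes that make deoxynucleotides. The genes of G2 and mitosis come later in the same cycle, under FoxM1, B-Myb and the MuvB complex, and make cyclin A and B, Cdk1, the spindle checkpoint, the chromosome passengers and the motors of the spindle. In the adult lens most epithelial cells are at rest, and division is found mainly in a zone near the equator.

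Promoters of cell cycle genes are known to share short elements, and these are shown for a few genes because the elements of S phase and of mitosis genes are known to differ. A RefSeq promoter (GRCm38.p6, 250 bases before to 50 after the start) was at hand for 40 of the 50 genes. On both strands, the letters CCAAT, the binding motif of NF-Y, were found in 18 of the 22 mitosis genes with a promoter (81.8%) and in 10 of 16 S phase genes (62.5%), against 41.1% of all 27025 genes in the promoter table. The letters TTTGAA, the cell cycle genes homology region, were found in 15 of 22 mitosis genes (68.2%) and 2 of 16 S phase genes (12.5%), against 20.2% of all genes. An E2F motif, TTTCCCGC or TTCCCGCC, was found in 5 of 16 S phase genes (31.2%) and 0 of 22 mitosis genes, against 3.15% of all genes. The E2F spellings can overlap each other, while CCAAT and TTTGAA were searched on their own. A match is a description of these letters, not a site. The 150 bases before the start that the promoter table uses are printed for Mki67 (minus strand, chr7:135716380-135716529), Top2a (minus, chr11:99024190-99024339), Cdk1 (minus, chr10:69352913-69353062), Prc1 (plus, chr7:80294326-80294475, 1 of its 2 starts), Cdc6 (plus, chr11:98908001-98908150) and Rrm1 (plus, chr7:102441545-102441694). Each runs 5′ to 3′ on the strand of its gene, and capitals mark a match on either strand. In the RefSeq gene table the outer bounds of some of these genes reach further, and 150 bases of the Cdc6 window, 71 of the Mki67 window, 31 of the Prc1 window and 10 of the Top2a window lie within them.
Mki67: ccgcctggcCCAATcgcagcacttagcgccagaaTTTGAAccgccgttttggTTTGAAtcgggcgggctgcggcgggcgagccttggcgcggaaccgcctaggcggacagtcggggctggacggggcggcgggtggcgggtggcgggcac
Top2a: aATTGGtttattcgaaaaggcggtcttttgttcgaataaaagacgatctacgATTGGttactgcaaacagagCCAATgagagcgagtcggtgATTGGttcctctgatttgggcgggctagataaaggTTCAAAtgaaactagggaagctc
Cdk1: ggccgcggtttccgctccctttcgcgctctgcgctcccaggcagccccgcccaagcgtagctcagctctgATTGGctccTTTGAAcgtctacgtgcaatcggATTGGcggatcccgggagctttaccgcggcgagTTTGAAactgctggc
Prc1: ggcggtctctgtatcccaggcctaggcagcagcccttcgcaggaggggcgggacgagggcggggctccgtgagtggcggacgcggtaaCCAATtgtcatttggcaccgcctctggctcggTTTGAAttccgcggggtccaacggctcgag
Cdc6: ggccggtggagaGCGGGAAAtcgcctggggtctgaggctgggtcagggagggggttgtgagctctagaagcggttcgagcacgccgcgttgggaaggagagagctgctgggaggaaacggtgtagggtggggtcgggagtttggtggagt
Rrm1: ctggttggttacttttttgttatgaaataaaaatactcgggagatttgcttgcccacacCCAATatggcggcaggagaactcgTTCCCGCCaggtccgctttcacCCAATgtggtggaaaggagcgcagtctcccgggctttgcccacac
The windows of Mki67, Top2a, Cdk1 and Prc1, which act in G2 and mitosis, held TTTGAA or its reverse complement 2, 1, 2 and 1 times. The windows of Cdc6 and Rrm1, which act in licensing and in deoxynucleotide supply, held no TTTGAA and 1 E2F motif each. These windows were picked from genes that carry the letters, to show them. Counting the bases before the start alone, 8 of 22 mitosis genes (36.4%) held TTTGAA and 4 of 16 S phase genes (25%) an E2F motif, against 18.3% and 2.64% of all genes.

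Values are FPKM, fragments scaled to transcript length and to the mapped fragments of the library, so levels of different genes can be set side by side. Read totals are unknown here, and FPKM summed to between 446531 and 740140 per library. The most common ratio between libraries among genes averaging under 0.3 FPKM gave relative depth estimates from 0.874 to 1.10. As FPKM are already scaled to the library, these estimates cannot settle whether a library was shallower than the rest. Pearson's r of log2(FPKM + 1) between libraries of one condition ranged from 0.929 to 0.976 across genes. As a check of the tissue, Cryaa, an α-crystallin of the lens, was at 8390 FPKM or more in 11 libraries. In the other library, WT 0 h replicate 2, Cryaa is listed at 0 while Cryab is at 13200 FPKM. Itgb8 was at 7.26, 10.8 and 8.42 FPKM in WT at 0 h, at 9.08, 8.38 and 9.58 in WT at 24 h, at 6.83, 4.58 and 7.31 in β8ITG-cKO at 0 h and at 9.28, 11.8 and 10.3 in β8ITG-cKO at 24 h. The FPKM of the whole gene counts the exons left in place, so it does not check the genotype labels.

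The WT 24 h libraries stood apart from each other in the cell cycle genes, and every result that rests on them is read with that in view. In replicate 1, 18 of 18 S phase genes and 27 of 28 mitosis genes were above all 3 WT 0 h libraries, against 47.8% of all 15262 genes. In replicate 2, 17 S phase genes but only 16 mitosis genes were, against 51.4% of all genes. In replicate 3, 12 S phase genes and 4 mitosis genes were above the WT 0 h libraries, and 21 mitosis genes were below all of them, against 40.3% and 30.6% of all genes. The plot of all genes by library shows these columns side by side.

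**Figure D1:**
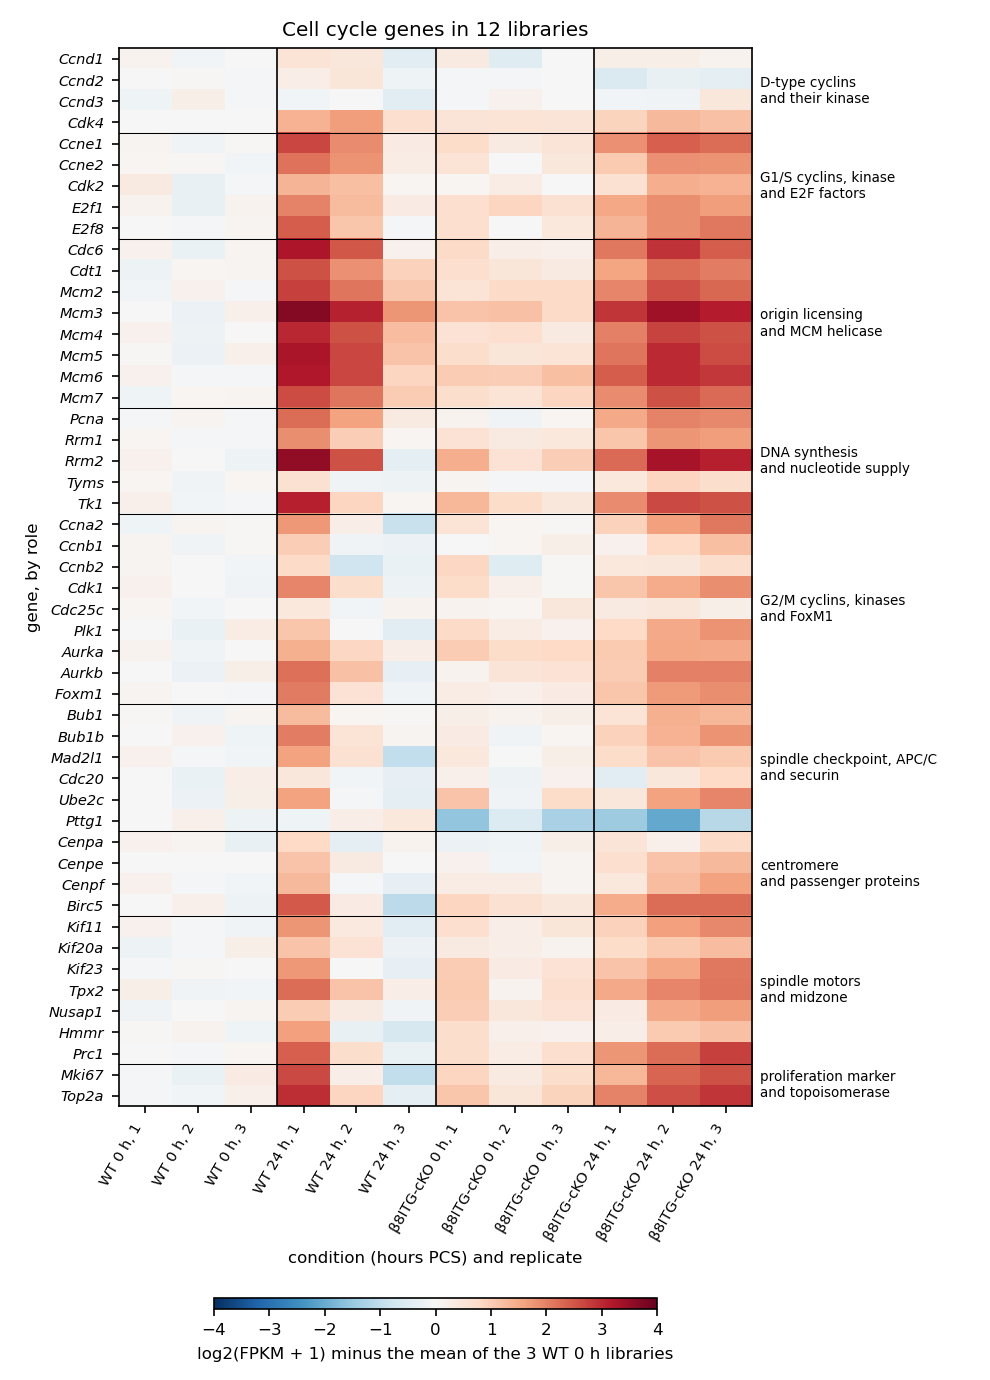
Each row is one of the 50 cell cycle genes, ordered by role, and each column one of the 12 libraries. Colour gives log2(FPKM + 1) minus the mean of the 3 WT 0 h libraries. The WT 24 h libraries differ from each other more than the 3 libraries of any other condition, and Pttg1 is the row that is low in all 6 β8ITG-cKO libraries.

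In WT, genes of S phase entry rose within 24 h PCS and no mitosis gene passed the test. Of 48 cell cycle genes tested, 11 rose and 0 fell (limma, adjusted p at most 0.05), or 10 of 18 S phase genes, 0 of 26 mitosis genes and Cdk4. Across all 15146 genes tested, 29.7% were called, 20.9% higher and 8.81% lower. The total of 11 of 48 is thus near the share of all genes that rose. The S phase count is above that share and the mitosis count below it. At an unadjusted p under 0.05 the counts were 17 higher and 0 lower, 2 of them mitosis genes, against 42.6% of all genes (29.0% higher and 13.5% lower). The libraries of the times did not overlap for 15 higher and 0 lower cell cycle genes, against 31.3% and 15.6% of all genes, so the higher count is again near the share of all genes. The median log2 change was 1.70 for the S phase genes, 0.47 for the mitosis genes and 0.16 for all genes. The mitosis median was 0.12 without WT 24 h replicate 1, with 11 of 21 estimates above 0, and 0.86 without replicate 3. The S phase median was 1.11 and 2.24 in the same settings. In bulk RNA, more cells in the cycle and more RNA per cycling cell cannot be told apart.

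Of the MCM helicase subunits and licensing factors, 7 of 8 were called, with a median change of 2.11 on the log2(FPKM + 1) scale. Mcm3, a subunit of the helicase ring, measured 2.46, 1.93 and 2.95 FPKM at 0 h, then 42.2, 28.2 and 10.6 at 24 h. All 3 libraries at 24 h lay above all 3 at 0 h, although the lowest was 3.99-fold below the highest. Its mean rose 11.0-fold, with a log2 change of 2.84 ± 0.43 (SE, limma, adjusted p = 0.00336). Mcm2 measured 3.55, 4.60 and 3.71 FPKM at 0 h, then 31.6, 20.6 and 9.45 at 24 h, a log2 change of 1.98 ± 0.37 (SE, limma, adjusted p = 0.00728). Mcm4 measured 2.99, 2.03 and 2.58 FPKM at 0 h, then 27.2, 19.6 and 7.34 at 24 h, a log2 change of 2.27 ± 0.41 (SE, limma, adjusted p = 0.00619). As for Mcm3, the groups did not overlap, and replicate 3 was the lowest of the 24 h libraries. Cdc6, which loads the helicase with Cdt1, was the member of this role that was not called, with 0.699, 0.251 and 0.623 FPKM at 0 h against 13.3, 7.46 and 0.720 at 24 h.

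Among the other S phase genes, 3 of 10 were called in WT, namely Pcna and the cyclin E genes Ccne1 and Ccne2. Pcna measured 10.9, 12.2 and 10.8 FPKM at 0 h, then 56.6, 36.5 and 14.8 at 24 h, a mean 3.19-fold higher (log2 change 1.40 ± 0.41 SE, limma, adjusted p = 0.0379). The groups did not overlap, but this call was lost in 7 of 13 alternatives, with an adjusted p up to 0.115. Ccne1 and Ccne2 lost their calls with no filter on low values and with the libraries scaled to the same median. They also lost them without any one of WT 0 h replicates 1, 2 and 3 or of 24 h replicates 1 and 2. Rrm1, the large subunit of ribonucleotide reductase, measured 4.10, 3.64 and 3.69 FPKM at 0 h, then 16.4, 8.52 and 4.03 at 24 h, with a log2 change of 0.97 ± 0.39 (SE, limma, adjusted p = 0.10). E2f1 measured 1.24, 0.653 and 1.24 FPKM at 0 h, then 7.0, 3.89 and 1.56 at 24 h, with an adjusted p of 0.0503 (limma). Cdk2, the kinase partner of cyclin E and cyclin A, measured 2.98, 1.52 and 1.99 FPKM at 0 h, then 6.97, 6.12 and 2.27 at 24 h. For Rrm1 and Cdk2 the WT 24 h replicate 3 lay within the range at 0 h, while for E2f1 it lay above it.

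Mki67, which codes for the Ki67 protein used as a marker of cycling cells, measured 3.37, 2.78 and 4.63 FPKM in WT at 0 h, then 27.0, 4.46 and 1.31 at 24 h. At 24 h replicate 1 was above, replicate 2 within and replicate 3 below the range of the 0 h libraries. The mean rose 3.04-fold, with replicate 1 far above the others, and the log2 change was 0.64 ± 0.78 (SE, limma, adjusted p = 0.56). Top2a, the topoisomerase that untangles DNA before division, measured 2.24, 2.11 and 2.86 FPKM at 0 h, then 25, 5.13 and 1.61 at 24 h. Its change was 1.14 ± 0.71 on the log2 scale (SE, limma, adjusted p = 0.256). Birc5, the passenger protein survivin, measured 1.81, 2.25 and 1.42 FPKM at 0 h, then 14.5, 2.52 and 0.345 at 24 h. These 3 genes had their highest and their lowest WT value at the same time point, which is what gives the wide errors.

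Replicate 1 was the highest WT 24 h library for each of the 6 mitosis genes given next as well. Ccna2, cyclin A2, measured 1.38, 1.90 and 1.76 FPKM at 0 h, then 7.87, 2.24 and 0.452 at 24 h. Foxm1, the transcription factor of G2 genes, measured 1.26, 1.11 and 0.981 FPKM at 0 h, then 7.87, 2.17 and 0.924 at 24 h. Prc1, which bundles microtubules in the midzone, measured 1.5, 1.42 and 1.63 FPKM at 0 h, then 12.3, 3.11 and 1.11 at 24 h. For Ccna2, Foxm1 and Prc1, replicates 1 and 2 at 24 h were above all 0 h libraries and replicate 3 was below all of them. Ube2c, the ubiquitin-conjugating enzyme of the APC/C, measured 1.08, 0.767 and 1.48 FPKM at 0 h, then 5.43, 1.01 and 0.591 at 24 h. Cenpf, a kinetochore protein, measured 1.69, 1.30 and 1.25 FPKM at 0 h, then 4.94, 1.34 and 0.929 at 24 h. Tpx2, which activates Aurora A on the spindle, measured 2.47, 1.70 and 1.73 FPKM at 0 h, then 13.0, 5.44 and 2.54 at 24 h, and was the single one of these 6 whose groups did not overlap (log2 change 1.21 ± 0.44 SE, limma, adjusted p = 0.0737).

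The count in WT depended on which 24 h library was left out. Without replicate 3, a setting in which 33.6% of all genes were called, 28 of the cell cycle genes rose, the 11 called before and 17 more, of which 9 act in G2 or mitosis. Top2a was then among them (log2 change 1.90 ± 0.54 SE, limma, adjusted p = 0.0355) while Mki67 was not (1.45 ± 0.62 SE, adjusted p = 0.114). Without replicate 1 or replicate 2, 8 and 7 genes rose, and without WT 0 h replicates 1, 2 and 3, 8, 7 and 7 did. In these settings between 16.6% and 22.3% of all genes were called, against 29.7% with all libraries.

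**Figure D2:**
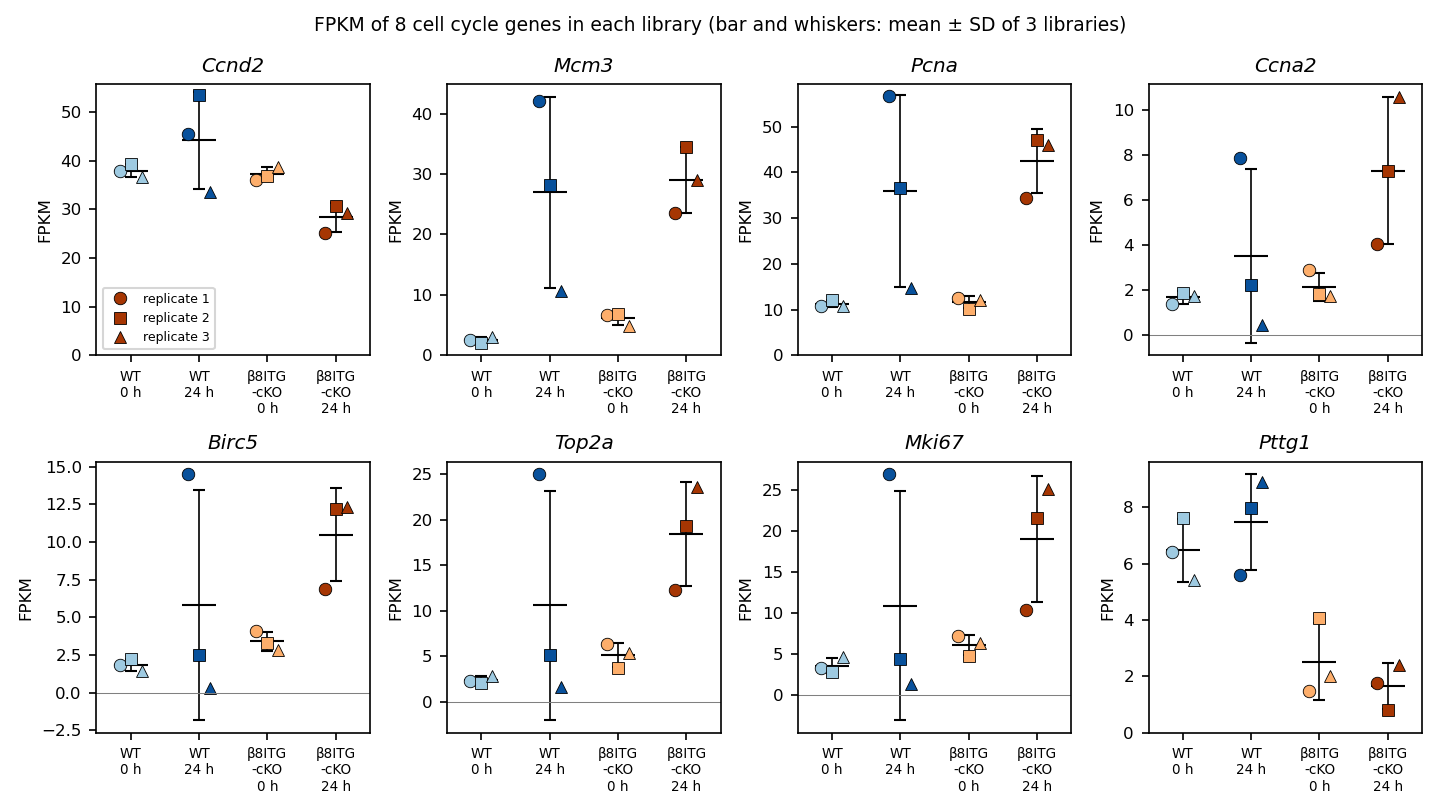
FPKM (y axis) of 8 cell cycle genes in the 4 conditions, with 1 symbol per library and a bar with whiskers for the mean ± SD of 3 libraries. Mcm3 and Pcna are higher in every 24 h library than in the 0 h libraries of the same genotype, Birc5, Top2a and Mki67 run from above to below their 0 h level within WT 24 h, and Pttg1 is lower in all β8ITG-cKO libraries.

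In β8ITG-cKO, both S phase and mitosis genes rose within 24 h PCS. Of 49 genes tested, 38 rose and 1 fell (limma, adjusted p at most 0.05), or all 18 S phase genes, 19 of 27 mitosis genes and Cdk4, with Ccnd2 lower. Across all 15237 genes tested, 46.1% were called, 35.4% higher and 10.7% lower. At an unadjusted p under 0.05 there were 40 higher and 1 lower, against 53.7% of all genes (40.7% higher and 13.0% lower). The libraries of the times did not overlap for 38 higher genes and 1 lower gene, against 42.9% and 14.0% of all genes. The median log2 change was 1.56 for the S phase genes, 0.95 for the mitosis genes and 0.23 for all genes. The higher mitosis median than in WT depends on this scale. By the ratio of mean FPKM, which the high WT 24 h replicate 1 raises, mitosis genes went both ways between the genotypes. Top2a rose 4.4-fold in WT and 3.58-fold in β8ITG-cKO, and Ccna2 2.09-fold and 3.39-fold. The 11 genes called in WT were 28.9% of the 38 that rose in β8ITG-cKO, and 100.0% of them were called in both. With the size criteria of the study (a fold over 2, a difference over 2 FPKM and a level of at least 2 FPKM), 30 genes rose in β8ITG-cKO and 11 in WT, with 0 lower in either. These criteria called 15.1% of all genes in β8ITG-cKO (11.3% higher and 3.77% lower) and 14.3% in WT (10.3% higher and 3.92% lower).

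Among S phase genes of β8ITG-cKO, the 24 h libraries did not overlap the 0 h libraries for any of the 18. Pcna measured 12.6, 10.2 and 12.1 FPKM at 0 h, then 34.4, 47.1 and 46.0 at 24 h, a log2 change of 1.78 ± 0.14 (SE, limma, adjusted p = 7.58e-05). Mcm3 measured 6.62, 6.75 and 4.78 FPKM at 0 h, then 23.6, 34.5 and 29.1 at 24 h, a log2 change of 2.09 ± 0.17 (SE, limma, adjusted p = 7.83e-05). Mcm6 measured 6.05, 5.96 and 7.07 FPKM at 0 h, then 17.7, 26.5 and 24.1 at 24 h, a log2 change of 1.68 ± 0.16 (SE, limma, adjusted p = 0.000139). For each of these genes replicate 1 was the lowest library at 24 h. Rrm1 measured 6.21, 5.19 and 5.48 FPKM at 0 h, then 9.44, 15.4 and 14.4 at 24 h. The smallest change of the 18 was that of Tyms, thymidylate synthase, with 3.76, 3.33 and 3.28 FPKM at 0 h against 4.91, 7.05 and 6.23 at 24 h (log2 change 0.65 ± 0.14 SE, limma, adjusted p = 0.0064).

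The calls among mitosis genes of β8ITG-cKO covered all 5 roles. They were 6 of 8 G2/M cyclins and kinases, 3 of 6 genes of the spindle checkpoint and the APC/C, 3 of 4 centromere and passenger proteins, 5 of 7 spindle motors and midzone proteins, and both Mki67 and Top2a. Mki67 measured 7.17, 4.75 and 6.41 FPKM at 0 h, then 10.4, 21.6 and 25.2 at 24 h, so the groups did not overlap, and replicate 1 was the lowest at 24 h. The mean rose 3.12-fold (log2 change 1.42 ± 0.30 SE, limma, adjusted p = 0.00626), and this call was lost in 1 of 13 alternatives, the fit over all 12 libraries (adjusted p = 0.114). Top2a measured 6.35, 3.71 and 5.33 FPKM at 0 h, then 12.3, 19.3 and 23.6 at 24 h (log2 change 1.64 ± 0.25 SE, limma, adjusted p = 0.00138). Prc1 measured 3.13, 2.09 and 3.03 FPKM at 0 h, then 7.52, 10.8 and 15.7 at 24 h. It had the largest log2 change of the mitosis genes (1.68 ± 0.24 SE, limma, adjusted p = 0.00112).

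Other genes of the group showed the same order of libraries. Ccna2 measured 2.88, 1.83 and 1.76 FPKM at 0 h, then 4.06, 7.28 and 10.6 at 24 h. Birc5 measured 4.08, 3.30 and 2.86 FPKM at 0 h, then 6.91, 12.2 and 12.3 at 24 h. Foxm1 measured 1.58, 1.44 and 1.63 FPKM at 0 h, then 3.53, 5.86 and 6.6 at 24 h. For these genes all 24 h libraries were above all 0 h libraries, with replicate 1 nearest to them. Ube2c, in contrast, measured 3.63, 0.891 and 2.49 FPKM at 0 h, then 1.85, 5.32 and 7.03 at 24 h, where replicate 1 fell within the 0 h range, and it was not called (log2 change 0.75 ± 0.44 SE, limma, adjusted p = 0.198). Tpx2 was called (1.25 ± 0.25 SE, limma, adjusted p = 0.00485). Cenpf was called at an adjusted p of 0.0349 (limma) and lost the call without any one of β8ITG-cKO 0 h replicates 1, 2 and 3 or of 24 h replicates 2 and 3. With 1 library dropped at a time the count lay between 34 genes (without 24 h replicate 3) and 43 genes (without 24 h replicate 1), and the fit over all 12 libraries gave 25. Of all genes 40.7%, 41.3% and 39.2% were called in these fits, against 46.1%.

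Ccnd1 and Ccnd2, the D-type cyclins with the highest FPKM of all 50 genes at 0 h, showed small changes. Ccnd1 measured 42.8, 35.5 and 38.0 FPKM in WT at 0 h, then 57.4, 53.1 and 28.9 at 24 h. In β8ITG-cKO Ccnd1 measured 49.9, 27.5 and 37.9 FPKM at 0 h, then 45.8, 45.4 and 42.3 at 24 h. The times overlapped in both genotypes, with a log2 change of 0.20 ± 0.26 in WT and 0.24 ± 0.19 in β8ITG-cKO (SE, limma, adjusted p = 0.584 and 0.334). Ccnd1 was called higher in WT without 24 h replicate 3 (0.50 ± 0.14 SE, limma, adjusted p = 0.0361), and in β8ITG-cKO without 0 h replicate 1. Ccnd2 measured 36.1, 36.9 and 38.8 FPKM in β8ITG-cKO at 0 h, then 25.1, 30.8 and 29.2 at 24 h. It fell by 0.39 on the log2 scale (SE 0.10, limma, adjusted p = 0.0165), a call lost without 0 h replicate 3 (adjusted p = 0.0653) and in the fit over all 12 libraries. With the libraries scaled to the same median it fell by 0.68 (SE 0.09, limma, adjusted p = 0.000958). In WT Ccnd2 measured 37.9, 39.4 and 36.7 FPKM at 0 h, then 45.5, 53.5 and 33.6 at 24 h. Cdk4, the kinase of the D-type cyclins, rose in both, from 12, 11.9 and 11.9 FPKM to 32.6, 39.8 and 19.6 in WT and from 17.5, 17.9 and 17.3 to 23.2, 30.5 and 28 in β8ITG-cKO, with no overlap of times. The Cdk4 mean rose 1.55-fold in β8ITG-cKO. With the libraries scaled to the same median its log2 change there was 0.30 ± 0.10 (SE, limma, adjusted p = 0.0499).

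**Figure D3:**
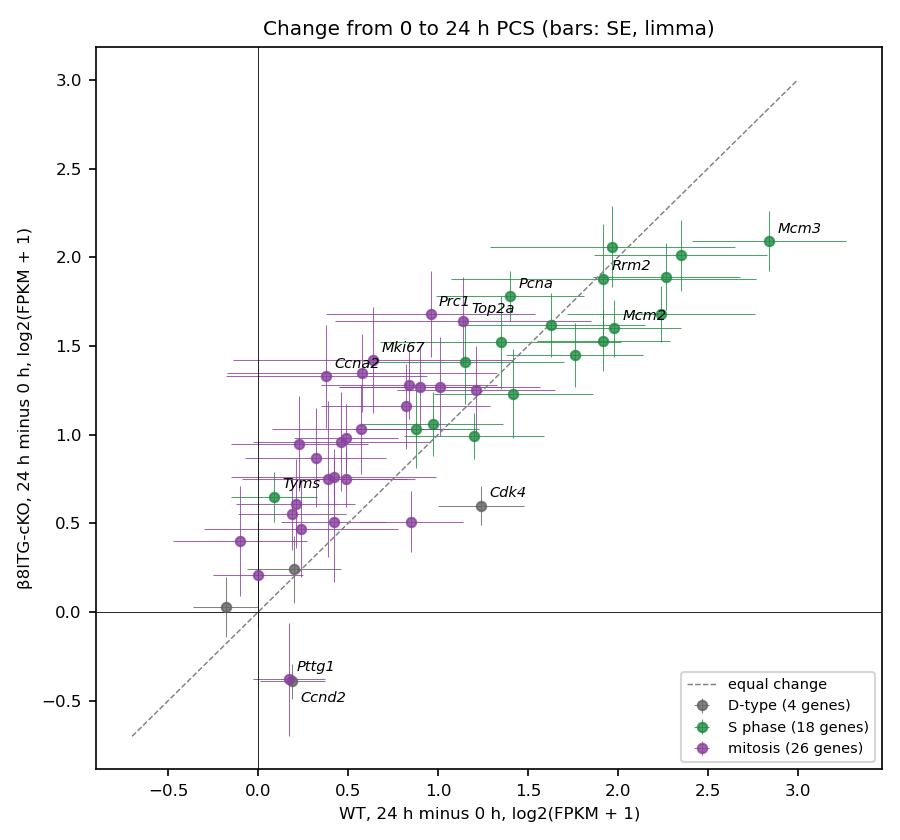
The log2(FPKM + 1) change from 0 to 24 h PCS of the 48 cell cycle genes tested in both genotypes, WT on the x axis and β8ITG-cKO on the y axis, with bars for the SE. S phase genes (18) lie on both sides of the dashed line of equal change, most mitosis genes (26) lie above it, and most SE bars are wider in WT. By the ratio of mean FPKM, which is not plotted, mitosis genes went both ways between the genotypes.

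Of 49 genes tested for the interaction of genotype and time in 1 limma fit over 12 libraries, 0 were called, against 9.39% of all 15262 genes (6.83% higher and 2.56% lower). Without adjustment 0 passed as higher and 2 as lower, against 24.2% of all genes (14.7% higher and 9.51% lower). They are Ccnd2 (-0.57 ± 0.21 SE, limma, adjusted p = 0.116) and Cdk4 (-0.64 ± 0.28 SE, limma, adjusted p = 0.192). The interaction for Mki67 was 0.78 ± 0.95 (SE) and that for Mcm3 was -0.75 ± 0.52 (SE). This fit shares the spread estimate of each gene over all conditions. In WT at 24 h the median SD of log2(FPKM + 1) was 0.95 for the cell cycle genes, against 0.24 for all genes. With SEs of this size, 0 calls do not show that the changes were alike. Without WT 24 h replicate 3, where 12.6% of all genes were called, 4 genes were called with a negative term. They were Ccnd2, Cdk4, Mcm3 (-1.29 ± 0.29 SE, limma, adjusted p = 0.0207) and Mcm6. For Cdk4, Mcm3 and Mcm6 this is a smaller rise over time in β8ITG-cKO than in WT. Ccnd2 fell in β8ITG-cKO, while its estimate in WT was above 0 (0.37 ± 0.14 SE). Without WT 24 h replicate 1, where 6.65% of all genes were called, 1 gene was called with a positive term, Tyms. The Mki67 term was then 1.78 ± 0.53 (SE, limma, adjusted p = 0.0698).

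At 24 h PCS, the genotypes differed in 1 cell cycle gene. Of 49 genes tested, 0 were higher and 1 was lower in β8ITG-cKO, Pttg1 (limma, adjusted p at most 0.05), against 6.29% of all 15366 genes (5.64% higher and 0.644% lower). At an unadjusted p under 0.05 there were 1 higher and 2 lower, against 20.4% of all genes (14.2% higher and 6.2% lower). The genotypes did not overlap for 0 higher and 2 lower, against 17.5% and 9.0%. The size criteria of the study left 0 higher and 1 lower, against 3.66% of all genes (3.37% higher and 0.286% lower). The median log2 difference was 0.46 for the S phase genes and 0.67 for the mitosis genes, against 0.03 for all genes, and 45 of the 49 estimates were above 0. Without WT 24 h replicate 3 the S phase median was -0.14, with 14 of 18 estimates at or below 0, and the mitosis median 0.30. Without WT 24 h replicate 1 the medians were 0.83 and 1.23. The difference was 0.28 ± 0.44 (SE) for Mcm3, 0.41 ± 0.43 for Pcna and 1.42 ± 0.83 for Mki67, each short of the threshold (limma, adjusted p = 0.77, 0.647 and 0.391). With SEs of this size these libraries do not show that the genotypes were alike. Leaving out WT 24 h replicate 1 changed this count to 8 higher and 1 lower, the 8 being Birc5, Ccnb2, Kif23, Mki67, Plk1, Prc1, Tk1 and Top2a, while 5.68% of all genes were called (4.84% higher). Mki67 was then 2.41 ± 0.46 higher on the log2 scale (SE, limma, adjusted p = 0.0328), where the remaining pair of WT libraries was at 4.46 and 1.31 FPKM. Without WT 24 h replicate 3 the count was 0 higher and 2 lower, Pttg1 and Ccnd2, while 7.2% of all genes were called (5.71% higher).

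Pttg1, the securin that holds separase inactive until anaphase, was the gene called between the genotypes at both times. It measured 6.40, 7.63 and 5.41 FPKM in WT at 0 h, then 5.59, 7.97 and 8.91 at 24 h. In β8ITG-cKO it measured 1.47, 4.08 and 2.02 FPKM at 0 h, then 1.76, 0.809 and 2.41 at 24 h. All 6 β8ITG-cKO libraries were below all 6 WT libraries, while the times overlapped within each genotype. At 24 h the mean in β8ITG-cKO was 0.222 of that in WT (log2 difference -1.70 ± 0.27 SE, limma, adjusted p = 0.0104), and this call held in all 13 alternatives at that threshold, with an adjusted p up to 0.0464. At 0 h it was 0.389 of WT (-1.14 ± 0.26 SE, limma, adjusted p = 0.0414), a call lost in 7 of 13 alternatives, with an adjusted p up to 0.146. Its RefSeq promoter window held none of the 3 motifs. The gene is at chr11:43420244-43427463 in GRCm38.p6, and the strain background of β8ITG-cKO cannot be told apart from the deletion here.

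At 0 h PCS, several S phase genes were higher in β8ITG-cKO than in WT. Of 46 genes tested, 9 were higher and 1 lower (limma, adjusted p at most 0.05), against 6.94% of all 14708 genes (4.18% higher and 2.75% lower). At an unadjusted p under 0.05 there were 22 higher and 1 lower, against 24.0% of all genes (13.9% higher and 10% lower). The 9 are Cdk4, E2f1, Mcm2, Mcm3, Mcm6, Mcm7, Rrm2, Aurka and Top2a, 6 of them S phase genes, and the libraries of the genotypes did not overlap for 24 higher genes and 1 lower gene, against 18.0% and 12.8% of all genes. Mcm6 measured 2.91, 2.33 and 2.29 FPKM in WT against 6.05, 5.96 and 7.07 in β8ITG-cKO, a log2 difference of 1.07 ± 0.13 (SE, limma, adjusted p = 0.00603). Mcm3 measured 2.46, 1.93 and 2.95 FPKM in WT against 6.62, 6.75 and 4.78 in β8ITG-cKO (1.03 ± 0.17 SE, limma, adjusted p = 0.0176). Cdk4 was 0.52 ± 0.09 higher (SE, limma, adjusted p = 0.0204). In each of these β8ITG-cKO was above WT in 3 of 3 libraries. Mki67, at 3.37, 2.78 and 4.63 FPKM in WT and 7.17, 4.75 and 6.41 in β8ITG-cKO, did not overlap either but was not called (0.64 ± 0.19 SE, limma, adjusted p = 0.0913). Cell type markers differed at 0 h too. Foxe3, Cdh1, Maf and Mab21l1 (0.97 ± 0.11 SE, limma, adjusted p = 0.00383) of the lens epithelium list were called higher in β8ITG-cKO and none lower. Aldh3a1 of corneal epithelium (1.58 ± 0.21 SE) and Pdgfrb were higher, and Dcn was lower (-1.63 ± 0.16 SE). Corneal epithelium markers summed to a mean of 741 FPKM against 246 in WT, and red blood cell markers to 11.3 against 98.1. Their part in the cell cycle values was not tested.

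The calls at 0 h depended on single libraries. Leaving out 1 library gave 1 (without WT replicate 1), 6 (WT replicate 2), 4 (WT replicate 3), 2 (β8ITG-cKO replicate 1), 4 (β8ITG-cKO replicate 2) and 2 (β8ITG-cKO replicate 3) genes in place of 10. The share of all genes called fell too, from 6.94% to 1.84, 5.18, 4.5, 3.03, 1.83 and 0.922% in that order. The fit over all 12 libraries called 1 gene, Pttg1, and 5.37% of all genes. The fit with no filter on low values called 2, Cdk4 and Mcm6, and 0.898% of all genes. With the size criteria of the study 4 genes were higher and 1 lower, against 2.52% of all genes (1.35% higher and 1.18% lower).

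Summed over genes, S phase and mitosis levels parted in WT at 24 h. The summed FPKM of the 18 S phase genes was 45.9, 42.4 and 44.6 in WT at 0 h and 367, 224 and 80.1 at 24 h. That of the 28 mitosis genes was 35, 32.9 and 34.2 at 0 h and 182, 52.7 and 25.6 at 24 h. In β8ITG-cKO the S phase sum went from 77.9, 67.4 and 69.5 to 195, 310 and 274, and the mitosis sum from 60.8, 40.1 and 48.4 to 85.9, 148 and 182. The WT 24 h replicate 3 thus had an S phase sum above all WT 0 h libraries and a mitosis sum below all of them. The mitosis sum was 0.496, 0.236 and 0.319 of the S phase sum in WT at 24 h, against 0.762, 0.774 and 0.766 at 0 h. In β8ITG-cKO the same ratio was 0.440, 0.476 and 0.666 at 24 h and 0.780, 0.596 and 0.697 at 0 h, so that the times overlapped there. The mitosis sum includes Pttg1, at 6.40, 7.63 and 5.41 FPKM in WT at 0 h and 5.59, 7.97 and 8.91 at 24 h. In β8ITG-cKO it was at 1.47, 4.08 and 2.02 FPKM at 0 h and 1.76, 0.809 and 2.41 at 24 h. The ratios thus depend in part on this gene, most of all in WT 24 h replicate 3.

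**Figure D4:**
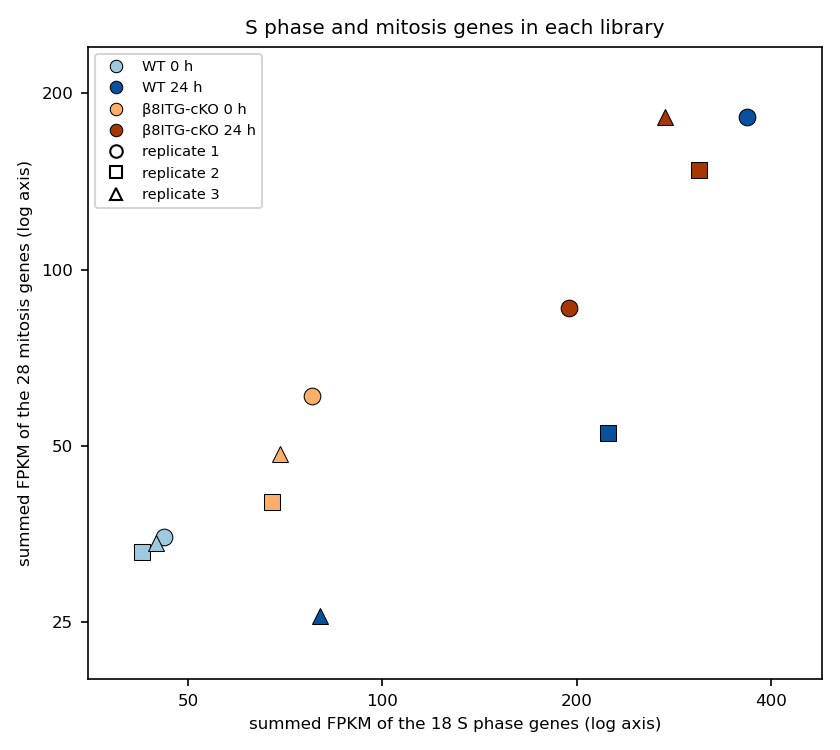
Summed FPKM of the 18 S phase genes (x axis) and of the 28 mitosis genes (y axis), both on log axes, with 1 symbol per library. The 3 WT 0 h libraries sit together, from 42.4 to 45.9 and from 32.9 to 35, while the WT 24 h libraries run from 80.1 to 367 and from 25.6 to 182.

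The spread between libraries of one condition was widest in WT at 24 h. There the median SD of log2(FPKM + 1) was 0.96 for the S phase genes and 1.02 for the mitosis genes, against 0.24 for all 15262 genes that averaged 0.5 FPKM or more. The median of the 49 cell cycle genes was 0.95. In β8ITG-cKO at 24 h it was 0.39, against 0.16 for all genes. At 0 h it was 0.16 in WT and 0.21 in β8ITG-cKO, against 0.19 and 0.15 for all genes. Replicate 1 was the highest WT 24 h library for 45 of 49 genes and replicate 3 the lowest for 46, while for all genes these shares were 30.6% and 49.0%. In β8ITG-cKO at 24 h replicate 1 was the lowest for 45 of 49 genes, against 45.1% of all genes. The widest ratio of highest to lowest was that of Hmmr, which codes for a spindle protein, at 3.87, 0.274 and 0.00907 FPKM in WT at 24 h, a gene picked after its values were seen.

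**Figure D5:**
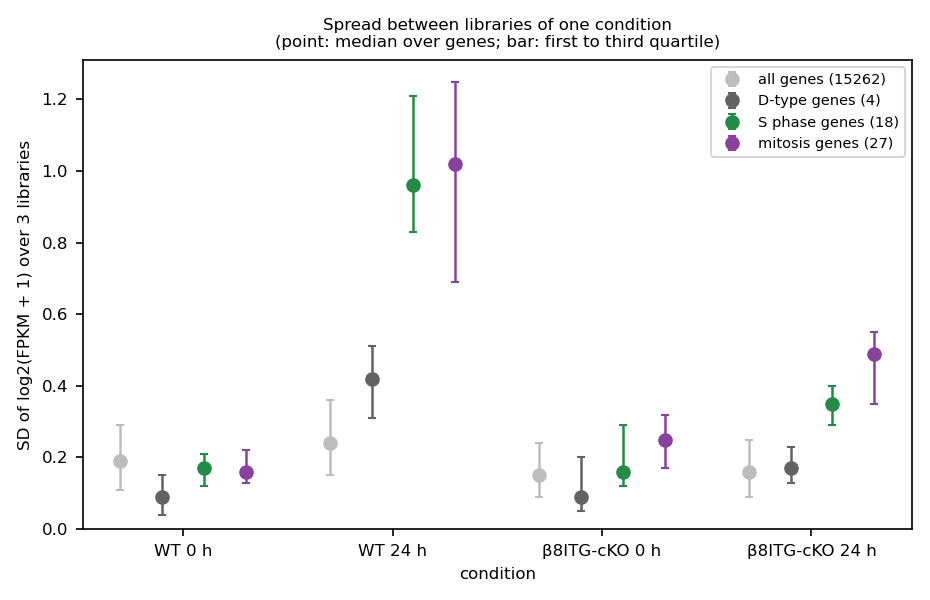
SD of log2(FPKM + 1) over the 3 libraries of each condition (y axis), for all genes that averaged 0.5 FPKM or more and for 3 classes of cell cycle genes. Points are medians over genes and bars run from the first to the third quartile. At 24 h in WT the medians for S phase (0.96) and mitosis (1.02) genes are far above that of all genes (0.24).

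Other features of the libraries differed beside the cell cycle genes, and their part in these results was not tested. The sexes in each pool are not in the labels. Xist, an RNA made from the inactive X chromosome of females, was at 48.0, 3.43 and 0.486 FPKM in WT 24 h replicates 1, 2 and 3, and Eif2s3y, a gene of the Y chromosome, at 0.0328, 5.64 and 9.84. In β8ITG-cKO 24 h replicates 1, 2 and 3, Xist was at 49.3, 0.759 and 36.7 FPKM and Eif2s3y at 0.0251, 10.4 and 1.75. Among the 24 h libraries, the one with the most Xist was thus the highest in most cell cycle genes in WT and the lowest in most of them in β8ITG-cKO. At 0 h in WT, Xist was at 0.0354, 19.9 and 60.6 FPKM while the S phase sum stayed between 42.4 and 45.9. WT 24 h replicate 3 was also high in Krt15, a keratin of surface epithelium, at 46.4 FPKM against 1.65 to 9.07 in the other 11 libraries. These genes were picked after their values were seen. The 10 highest genes of WT 24 h replicate 3 held 44.7% of its summed FPKM, against 36.0% and 36.5% in replicates 1 and 2. In the WT 0 h libraries they held 43.1% to 47.4%. Corneal epithelium markers summed to 448 FPKM in replicate 3, against 291 and 156 in replicates 1 and 2. Whether replicate 3 was harvested or handled differently is not known here.

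Markers of other cell types moved as well. Of 15 leukocyte markers, 7 of 10 tested rose in WT and 10 of 11 in β8ITG-cKO, and 0 fell, against 20.9% and 35.4% of all genes that rose. Their summed FPKM was 14.2, 15.2 and 8.74 in WT at 0 h, 111, 95.1 and 78.8 in WT at 24 h, 15.2, 9.26 and 12.6 in β8ITG-cKO at 0 h and 57.6, 50.2 and 89.7 in β8ITG-cKO at 24 h. Lyz2, a lysozyme of myeloid cells, was the most abundant of them over all libraries. For S100a9, of neutrophils, all WT 0 h libraries are listed at 0, and those at 24 h measured 30.7, 19.3 and 24.2 FPKM. Ly6g was listed at 0 in all libraries, and Cd3e of T cells and Cd79a of B cells were at 0.064 FPKM or less. WT 24 h replicate 3 combined a leukocyte sum of 78.8 with a mitosis sum below the 0 h libraries. The part of leukocytes in the cell cycle values was not tested.

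Of 12 retina markers, all 12 rose in β8ITG-cKO from 0 h to 24 h, and all 12 were called higher in β8ITG-cKO at 24 h and in the interaction, against 35.4%, 5.64% and 6.83% of all genes. Their part in the cell cycle values was not tested. Their summed FPKM was 380, 1290 and 153 in WT at 0 h, 81.4, 144 and 155 in WT at 24 h, 368, 202 and 295 in β8ITG-cKO at 0 h and 1110, 947 and 1110 in β8ITG-cKO at 24 h. The β8ITG-cKO 24 h libraries, which differed in their mitosis sum from 85.9 to 182, were thus alike in retina markers. Lens epithelium markers were lower at 24 h for 5 of 10 genes in WT, with 1 higher, and for 8 of 10 in β8ITG-cKO. Fiber cell markers were lower for 9 and 10 of 10. Among all genes 8.81% were lower in WT and 10.7% in β8ITG-cKO, and the marker lists that follow are read against these shares and the shares higher, 20.9% and 35.4%. Of 7 corneal epithelium markers, 0 of 5 tested were called in WT and 2 of 2 were lower in β8ITG-cKO, with Aldh3a1 the most abundant. The 5 vascular endothelium markers summed to 7.38 FPKM or less in every library, and 3 of 3 tested rose in β8ITG-cKO. Of 5 red blood cell markers, 5 rose in β8ITG-cKO and 0 were called in WT, with Hba-a1 the most abundant. Of 7 markers of corneal stroma and other fibroblasts, 1 rose and 2 fell in WT, and 2 rose and 1 fell in β8ITG-cKO. Of 6 markers of iris and ciliary pigment cells, 0 were called in either.

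Genes of the cell cycle outside the 50 were counted by class. Of 36 other replication genes, 19 rose in WT and 33 in β8ITG-cKO, with 0 lower, against 20.9% and 35.4% of all genes higher, and the median log2 change was 0.96 and 0.90. Uhrf1, which brings DNA methylation to new DNA, measured 1.40, 0.863 and 0.798 FPKM in WT at 0 h, then 31.6, 17.8 and 4.84 at 24 h (log2 change 2.93 ± 0.55 SE, limma, adjusted p = 0.00721). In β8ITG-cKO it measured 3.48, 2.47 and 2.89 FPKM at 0 h, then 14.9, 25.6 and 20.3 at 24 h (2.40 ± 0.19 SE, adjusted p = 7.73e-05). The 24 h libraries were above the 0 h libraries in both, with the same order of replicates as for the MCM genes. Pola2, Gins2 and Pold1, of the DNA polymerases and the replicative helicase, were called in both genotypes, with log2 changes from 1.58 to 1.86 in WT and from 1.38 to 1.78 in β8ITG-cKO.

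Of 42 other mitosis genes, 6 of 37 tested rose in WT and 30 of 39 in β8ITG-cKO, with 0 lower. The WT count is below the 20.9% of all genes that rose, and in β8ITG-cKO 35.4% of all genes rose. Anln, anillin of the cleavage furrow, measured 0.373, 0.578 and 0.803 FPKM in WT at 0 h, then 8.37, 2.91 and 0.296 at 24 h. In β8ITG-cKO it measured 1.11, 0.615 and 1.02 FPKM at 0 h, then 4.15, 6.61 and 7.80 at 24 h (log2 change 1.88 ± 0.21 SE, limma, adjusted p = 0.000357). Replicate 3 of WT at 24 h was thus again below the 0 h libraries. Smc4, a condensin subunit, was called in both genotypes (1.06 ± 0.33 SE in WT, adjusted p = 0.045, and 1.26 ± 0.18 SE in β8ITG-cKO, adjusted p = 0.00115, limma), although the WT call was lost in 7 of 13 alternatives (adjusted p up to 0.136), while Kif4 and Ncaph were called in β8ITG-cKO and not in WT, and their interaction of genotype and time was not called (limma, adjusted p = 0.348 and 0.746).

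Of 7 CDK inhibitors, 2 rose and 1 fell over time in WT, and 3 rose and 1 fell in β8ITG-cKO. These counts are near the shares of all genes, 20.9% higher and 8.81% lower in WT and 35.4% and 10.7% in β8ITG-cKO, against which the lists below are read too. Cdkn1a, which codes for p21 and is a target of p53 and of TGF-β, measured 2.41, 2.97 and 1.65 FPKM in WT at 0 h, then 7.25, 9.67 and 6.82 at 24 h (log2 change 1.42 ± 0.21 SE, limma, adjusted p = 0.00277). In β8ITG-cKO it measured 1.29, 0.547 and 0.555 FPKM at 0 h, then 9.89, 6.79 and 8.82 at 24 h (2.41 ± 0.20 SE, adjusted p = 8.09e-05). Neither genotype showed overlap between times, and the WT 24 h libraries were close together here, unlike for the S phase genes. Cdkn1c, which codes for p57 and is needed when lens fiber cells leave the cycle, measured 46.6, 57.6 and 50.3 FPKM in WT at 0 h, then 9.52, 7.34 and 12.6 at 24 h, and fell by 2.30 on the log2 scale (SE 0.20, limma, adjusted p = 0.000386). In β8ITG-cKO it measured 44.1, 56.0 and 45.2 FPKM at 0 h, then 10.2, 6.32 and 13.0 at 24 h, and fell by 2.23 (SE 0.23, adjusted p = 0.000213).

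Cdkn2b, coding for p15, rose in both genotypes (1.28 ± 0.29 SE in WT, adjusted p = 0.0153, and 1.84 ± 0.12 SE in β8ITG-cKO, adjusted p = 3.24e-05, limma), with the WT call lost in 3 of 13 alternatives (adjusted p up to 0.0577). Cdkn1b, coding for p27, measured 15.8, 14.8 and 13.7 FPKM in WT at 0 h, then 9.46, 11.8 and 12.1 at 24 h, and was not called (-0.38 ± 0.15 SE, limma, adjusted p = 0.0851). Cdkn2a was at 1.52 FPKM or less in all libraries. Its rise in β8ITG-cKO (0.73 ± 0.23 SE, limma, adjusted p = 0.0343) was lost in 9 of 12 alternatives.

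Among 17 genes of the RB family, other E2F factors and the DREAM and MuvB complexes, 4 rose and 1 fell of 15 tested in WT, and 10 rose and 1 fell of 16 in β8ITG-cKO. Rbl1, coding for p107, measured 2.14, 1.90 and 2.00 FPKM in WT at 0 h, then 9.23, 7.41 and 4.81 at 24 h (1.40 ± 0.22 SE, limma, adjusted p = 0.00371). Mybl2, coding for B-Myb, measured 0.576, 0.527 and 0.379 FPKM in WT at 0 h, then 3.95, 0.964 and 0.389 at 24 h, and was called in β8ITG-cKO (1.27 ± 0.18 SE, limma, adjusted p = 0.000921). Rbl1 had all WT 24 h libraries above 0 h, and Mybl2 had replicate 3 at the 0 h level. E2f4 and E2f6 rose in both genotypes, a call that was lost in β8ITG-cKO for both when the libraries were scaled to the same median (adjusted p = 0.107 and 0.145). Of 9 other G1 cyclins and kinases, 3 rose in WT and 5 in β8ITG-cKO, with 0 lower, counts close to those shares. Cdk6 rose in both, a call lost in WT in 5 of 13 alternatives (adjusted p up to 0.0685, limma). Ccnc also rose in both and lost its call in β8ITG-cKO under that scaling, while Cdc25a and Fbxw7 were called in β8ITG-cKO.

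Myc, a transcription factor of growth, measured 11.7, 5.83 and 3.03 FPKM in WT at 0 h, then 15.7, 33.8 and 11.9 at 24 h (1.48 ± 0.48 SE, limma, adjusted p = 0.0504). In β8ITG-cKO it measured 1.21, 0.598 and 1.09 FPKM at 0 h, then 16.1, 11.9 and 11.1 at 24 h (2.83 ± 0.18 SE, adjusted p = 3.06e-05). All libraries at 24 h were above those at 0 h of the same genotype, and at 0 h β8ITG-cKO was lower than WT (-1.85 ± 0.37 SE, limma, adjusted p = 0.0293). That last call was lost when any one of 0 h WT replicates 1 and 2 or β8ITG-cKO replicates 1, 2 and 3 was left out. Mycn moved the other way, from 8.71, 8.36 and 9.31 FPKM to 3.63, 2.62 and 2.77 in WT (-1.30 ± 0.15 SE, limma, adjusted p = 0.00136). In β8ITG-cKO it went from 19.3, 23.7 and 21.6 to 4.53, 5.80 and 5.92 FPKM (-1.81 ± 0.13 SE, adjusted p = 4.23e-05), and at 0 h it was higher than in WT (1.2 ± 0.11 SE, adjusted p = 0.00257). Of the 7 genes of the MYC family, 0 rose and 2 fell in WT, and 1 rose and 2 fell in β8ITG-cKO, with Mxi1, a partner of Max, lower in both.

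The BTG and TOB genes are known as antiproliferative, and their change over time differed between the genotypes for Btg1 and Tob2. Of 5 genes, 2 fell in WT and 2 rose and 2 fell in β8ITG-cKO, where 29.7% and 46.1% of all genes were called. Tob1 fell in both, from 36.3, 45.5 and 35.3 FPKM to 23.5, 18 and 23.6 in WT and from 44.5, 42.4 and 41.5 to 20.1, 19.5 and 25 in β8ITG-cKO. Btg3 rose in β8ITG-cKO, from 3.88, 2.46 and 3.88 FPKM to 7.47, 7.71 and 7.22 (0.96 ± 0.15 SE, limma, adjusted p = 0.00172), while WT gave 9.72, 7.08 and 6.05 FPKM at 0 h and overlapped with 7.71, 11.6 and 10.2 at 24 h. Tob2 measured 19.6, 27.2 and 15.7 FPKM in WT at 0 h, then 8.51, 10.1 and 8.30 at 24 h, against 11.8, 8.44 and 9.79 in β8ITG-cKO at 0 h and 15.7, 15.3 and 14.7 at 24 h. Btg1 measured 33.4, 32.1 and 36.1 FPKM in WT at 0 h, then 33.5, 30.0 and 27.3 at 24 h, against 50.9, 57.4 and 54.8 in β8ITG-cKO at 0 h and 21.7, 25.9 and 26.8 at 24 h. Tob2 thus ran in opposite directions in the genotypes, and Btg1 fell in β8ITG-cKO, where the groups did not overlap.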

How the data were processed

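From strand-specific libraries of total RNA the authors made and deposited 4 tables, 1 per pair of conditions, with FPKM per library and gene from Cuffdiff. The submitters' processing notes name FastQC, cutadapt 1.12, TopHat2 2.1.0, Cuffdiff 2.2.1 and the builds mm10 and GRCm38.p5. Without read counts the depth is unknown and no counting interval is given. The tables repeat the same FPKM per library, with 0 differing values. A total of 8 mean columns and 8 group-value columns, and the authors' fold changes, p-values and q values, were not used.

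For every pair, a limma-trend model (limma 3.58.1 with eBayes, R 4.3.3) was run on log2(FPKM + 1), over all genes averaging 0.5 FPKM or more in those libraries, with Benjamini-Hochberg adjustment over all of them and a call at an adjusted p of at most 0.05. The interaction was fitted over 12 libraries. Fold changes are on the log2(FPKM + 1) scale, which understates those of low genes, and the ± after them is the SE. The fit was tested on simulated data drawn with the same spread per gene in all conditions. That test does not cover the wider spread of the cell cycle genes in WT at 24 h. An exact permutation test of 3 against 3 cannot go below p = 0.1, so none is given.

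The 50 genes, the 7 lists of other cell cycle genes and the 9 marker lists were chosen with earlier results of these data known. Named genes are Mki67, Pttg1, the 2 highest genes of each role, the 3 genes with the smallest p per direction and comparison, up to 4 genes of each list with the smallest p over time, and Cdkn1a, Cdkn1b, Cdkn1c, Cdkn2a, Myc and Itgb8, beside genes named with a count. Promoters are RefSeq's. Python 3.11.15 with numpy 2.4.6, pandas 2.3.3 and matplotlib 3.10.9 made the summaries and plots. The values of 1 marker gene are not reported here.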

Additional observations from a re-analysis of the deposited data

Results flagged for a closer look

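A difference in the change over time between the genotypes flagged 2 genes, Tob2 and Btg1, out of 168 cell cycle genes tested (1.19%), against 9.39% of all genes. For Tob2 the interaction of genotype and time was 1.67 ± 0.25 on the log2 scale (SE, limma over 12 libraries, adjusted p = 0.00537), with an adjusted p between 0.00121 and 0.0184 over the alternatives. It fell in WT (-1.10 ± 0.21 SE, adjusted p = 0.00717) and rose in β8ITG-cKO (0.57 ± 0.13 SE, adjusted p = 0.00756, lost with the libraries scaled to the same median, at 0.0889). For Btg1 the interaction was -0.95 ± 0.16 (SE, adjusted p = 0.00769), with an adjusted p between 0.00518 and 0.0256 over the alternatives. It fell in β8ITG-cKO (-1.11 ± 0.11 SE, adjusted p = 0.000177), and the change in WT was -0.16 ± 0.14 (SE, adjusted p = 0.406).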

How the results depend on the processing

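For the 89 results of named genes that were called with the main settings, 999 of 1160 values under alternatives kept their direction and call, 161 lost the call and 0 reversed. Calls gained by genes that were not called there are not in these counts. The number of cell cycle genes called was 11 in WT over time, 39 in β8ITG-cKO over time, 1 between the genotypes at 24 h, 10 at 0 h and 0 in the interaction. With no filter on low values it was 7 in WT over time and 2 at 0 h, with 12.3% and 0.898% of all genes called. In 1 fit over 12 libraries it was 17 in WT, 25 in β8ITG-cKO, 2 at 24 h and 1 at 0 h, with 41.0%, 39.2%, 10.1% and 5.37% of all genes called, against 29.7%, 46.1%, 6.29% and 6.94%. With the libraries scaled to the same median it was 2 at 24 h and 1 in the interaction, Ccnd2 in both, with 6.7% and 11.4% of all genes called. At an adjusted p of at most 0.01 it was 5 in WT, 0 at 24 h and 1 at 0 h, with 13.1%, 2.66% and 1.01% of all genes called. With the size criteria of the study it was 5 at 0 h (2.52% of all genes), and these could not be given for the interaction. Same-numbered libraries did not deviate together (r from -0.22 to 0.08 over 18 pairs), so the numbers were not taken as pairs, and the replicate block gave 1 at 0 h (1.83% of all genes), and changed no other count by over 1.5 times. Leaving out each library in turn gave 7 to 28 in WT, 34 to 43 in β8ITG-cKO, 1 to 9 at 24 h, 1 to 6 at 0 h and 0 to 4 in the interaction. Scaling to the same median moved the median log2 change of all genes from 0.16 to -0.04 in WT and from 0.23 to 0.00 in β8ITG-cKO, and the share of calls that were higher from 70.3% to 47.9%, from 76.7% to 51.4% and, between genotypes at 24 h, from 89.8% to 76.4%. The cause of these shifts was not tested. With 3 libraries per condition and no read counts, no counting error can be stated for any gene.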
